A study of Oryza sativa with 12 samples.

Results

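Transcripts of 6 genes for chlorophyll breakdown were followed in leaves of rice (*Oryza sativa*) plants exposed to salt. The genes were taken by locus ID from the 36844 features of the count table, whatever their expression: *SGR* (Os09g0532000), *NYC1* (Os01g0227100), *NOL* (Os03g0654600), *NYC3* (Os06g0354700), *PAO* (Os03g0146400) and *RCCR1* (Os10g0389200). All 6 were in the table, and all 6 were among the 20760 features that passed the filter on low counts. RNA-Seq was carried out on IL22, a salt tolerant introgression line with *indica* segments of FL478, including the *Saltol* QTL, in a *japonica* background, and on the line that the sample labels call PL12. No label spells out this name, and it was taken here as OLESA, the salt-sensitive *japonica* parent. The 4 groups were IL22 plants after 24 h at 80 mM NaCl, IL22 plants without added NaCl, OLESA plants after the same treatment, and OLESA plants without added NaCl, all of them hydroponically grown seedlings. Each group had 3 replicates, each one a pool of leaves of 4 plants, and IL22 is a single line, so that differences from OLESA belong to this line and not to *indica* segments in general.

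Chlorophyll is dismantled in a fixed order when leaves yellow, by enzymes that act first in the plastid membranes. Chlorophyll b is converted toward chlorophyll a by chlorophyll b reductase, magnesium is removed, the phytol tail is cut off, and the ring is then opened and reduced to colourless products that are exported to the vacuole. The pathway detoxifies a pigment that is harmful once released from its proteins. Rice mutants in several of these genes stay green during senescence, hence the names *STAY-GREEN* and *NON-YELLOW COLORING*.

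Library totals ran from 11505396 to 23578477 counts, and the values below are CPM values, that is, counts set relative to a library size scaled by the TMM method. *NYC1* had 3460 to 15504 counts per library, *NYC3* 1128 to 6976, *PAO* 369 to 3078, *NOL* 93 to 332, *SGR* 52 to 574 and *RCCR1* 47 to 555, so the last 3 genes carry the larger counting error. One library stood apart from its group. Over all tested features, the log2 CPM of IL22 control replicate 1 correlated at r = 0.942 and 0.937 with the other 2 IL22 control libraries, but at r = 0.965 with OLESA control replicate 2. Results that use the IL22 control group are therefore also given without this library. Leaves were sampled whole, and fewer cells of a type cannot be told apart from less RNA per cell.

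The first question was how the pathway responded to salt in each genotype. In OLESA, 5 of the 6 genes (*SGR*, *NYC1*, *NYC3*, *PAO* and *RCCR1*) were up-regulated by salt, between 2.12-fold and 3.62-fold, and none was down-regulated. In IL22, 4 of the 6 (*SGR*, *NYC1*, *PAO* and *RCCR1*) were up-regulated, between 1.76-fold and 2.40-fold. *NOL* did not pass the test in either genotype. Up-regulation means a log2 fold change (FC) above 0.5 and an adjusted p of 0.05 or less in edgeR's quasi-likelihood test. Of all tested features, 11.7% were up-regulated in OLESA and 2.92% in IL22. With an unadjusted p and the same FC, the same 5 and 4 genes passed, against 17.4% of features in OLESA and 8.14% in IL22. The median log2 FC of the 6 genes was 0.92 in IL22 and 1.61 in OLESA, while the median over all tested features was -0.03 in IL22 and 0.01 in OLESA. In the comparison within IL22, the 3 salt libraries lay above the 3 control libraries for each of the 6 genes (14.2% of features behaved so), and within OLESA for the 5 up-regulated genes (20.0% of features). Without IL22 control replicate 1, the median log2 FC of the 6 genes in IL22 was 0.86 (0.01 over all features), the same 4 genes passed by unadjusted p (12.8% of features), and the 6 genes still had all salt libraries above the remaining control libraries (28.0% of features). The salt responses of the 2 genotypes share no library, whereas each comparison between genotypes shares its libraries with both.

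**Figure D1:**
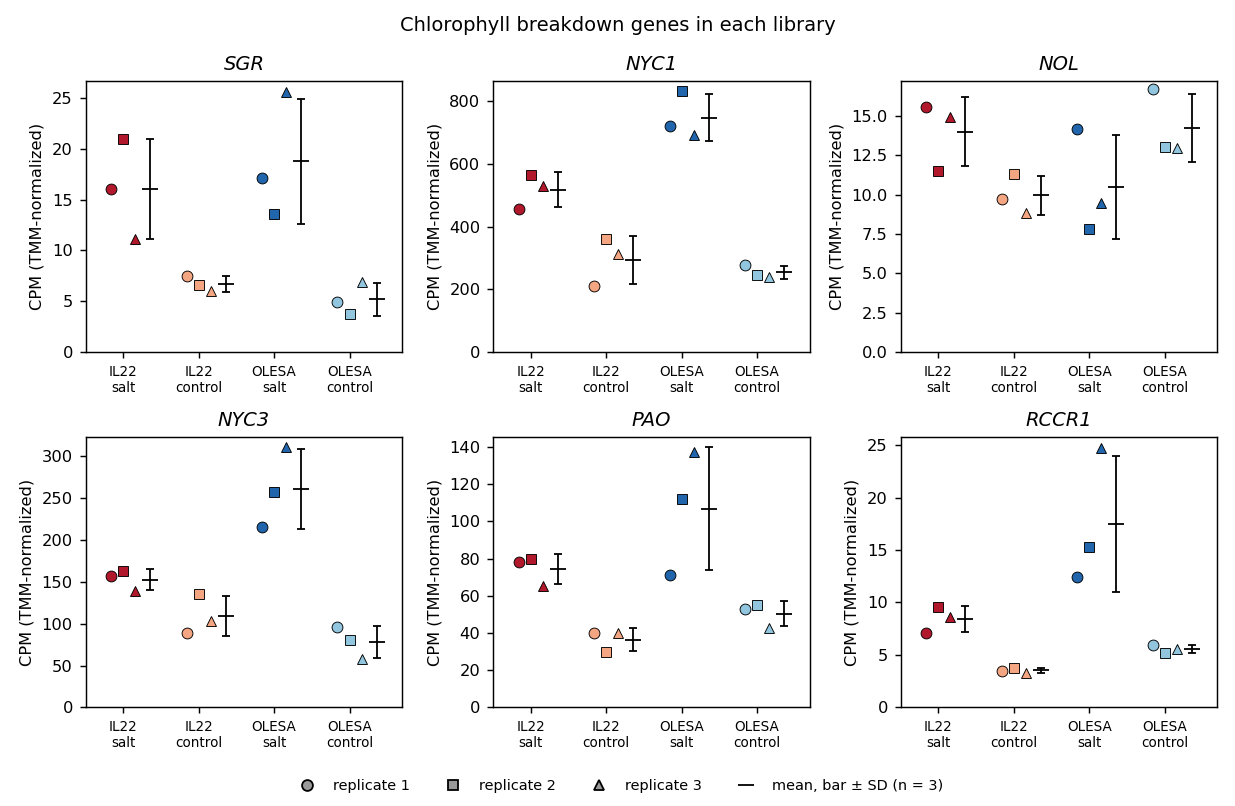
Expression of the 6 genes in each of the 12 libraries, in TMM-normalized CPM on axes that start at 0, with symbols for replicates and bars for the mean ± SD of 3 replicates. Salt libraries lie above control libraries of the same genotype in every panel except *NOL* in OLESA, and OLESA salt replicate 3 is the highest library for *SGR*, *NYC3*, *PAO* and *RCCR1*.

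*NYC1* and *NOL* encode the short-chain dehydrogenases that together make up chlorophyll b reductase, which starts the breakdown of chlorophyll b and of the light-harvesting complexes that carry it. *NYC1* was measured at 457, 565 and 530.0 CPM in IL22 salt libraries (replicates 1 to 3), against 209, 360 and 313 CPM in IL22 control libraries. In OLESA, it was at 720, 834 and 691 CPM under salt, against 276, 247 and 239 CPM in control libraries. Salt and control values did not overlap in either genotype, and the lowest IL22 control library was replicate 1. Salt raised *NYC1* by a log2 FC of 0.82 in IL22 (SE 0.19, adjusted p = 0.026) and of 1.56 in OLESA (SE 0.19, adjusted p = 0.000559). Without IL22 control replicate 1, the log2 FC in IL22 was 0.62 (adjusted p = 0.022). By group mean, the order was OLESA salt (748 ± 75.3 CPM, SD, n = 3), IL22 salt (517 ± 55.5), IL22 control (294 ± 77.1) and OLESA control (254 ± 19.7), and only the 2 control groups overlapped as neighbours in that order. Fitted on the IL22 libraries by themselves, *NYC1* missed the threshold (adjusted p = 0.0715). It also missed it when IL22 control replicate 3 was dropped (adjusted p = 0.0655) or when IL22 salt replicate 1 (0.0643), 2 (0.12) or 3 (0.0842) was.

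*NOL*, the partner of *NYC1*, was not called in either genotype. It was at 15.6, 11.5 and 14.97 CPM in IL22 salt libraries, against 9.76, 11.3 and 8.86 CPM in IL22 control libraries, a log2 FC of 0.49 (95% confidence interval -0.01 to 1.00, adjusted p = 0.251; 0.48 with an adjusted p of 0.239 when IL22 control replicate 1 was dropped). In OLESA, it was at 14.2, 7.84 and 9.45 CPM under salt, against 16.8, 13.1 and 13.0 CPM in control libraries, a log2 FC of -0.44 (95% confidence interval -0.94 to 0.07, adjusted p = 0.192). The group means were 14.0 ± 2.17 CPM in IL22 salt, 9.98 ± 1.24 in IL22 control, 10.5 ± 3.30 in OLESA salt and 14.3 ± 2.17 in OLESA control (SD, n = 3 each). Values overlapped between all neighbours in the order of the means. IL22 salt and IL22 control, which are not neighbours in it, were separated by a narrow margin (lowest salt library 11.54 CPM, highest control library 11.31 CPM). An unchanged level was not shown, since the intervals reach to an increase in IL22 and a decrease in OLESA.

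*SGR* encodes the magnesium dechelatase that turns chlorophyll a into pheophytin a, the step that commits the pigment to breakdown. It was measured at 16.1, 21.0 and 11.1 CPM in IL22 salt libraries, against 7.51, 6.58 and 5.995 CPM in IL22 control libraries. In OLESA, the values were 17.1, 13.6 and 25.6 CPM under salt, against 4.91, 3.71 and 6.88 CPM in control libraries. All 6 salt libraries lay above all 6 control libraries, whereas the genotypes overlapped within each condition. The log2 FC was 1.26 in IL22 (SE 0.30, adjusted p = 0.03) and 1.86 in OLESA (SE 0.31, adjusted p = 0.00242). *SGR* ranked 824th in IL22 and 686th in OLESA among the 20760 features ordered from the highest log2 FC. Without IL22 control replicate 1, the IL22 value was 1.36 (adjusted p = 0.0226). The call in IL22 was lost without IL22 control replicate 2 (adjusted p = 0.108), IL22 control replicate 3 (0.107), IL22 salt replicate 1 (0.104) or IL22 salt replicate 2 (0.145), at log2 FCs of 1.25, 1.18, 1.25 and 1.01.

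*NYC3* encodes an α/β hydrolase, the rice relative of the *Arabidopsis* pheophytinase that removes phytol from pheophytin a. It was at 157, 163 and 139 CPM in IL22 salt libraries, against 89.0, 136 and 103 CPM in IL22 control libraries. In OLESA, it was at 216, 257 and 311 CPM under salt, against 95.9, 80.5 and 58.1 CPM in control libraries. The OLESA salt libraries were the highest 3 of the 12, and the lowest IL22 salt library (138.6 CPM) lay just above the highest control library (135.8 CPM, IL22 control replicate 2). Salt raised *NYC3* in OLESA by a log2 FC of 1.74 (SE 0.22, adjusted p = 0.000559), a 3.34-fold increase. In IL22, the log2 FC was 0.48 (95% confidence interval 0.03 to 0.94, adjusted p = 0.208), and 0.36 without IL22 control replicate 1 (adjusted p = 0.291).

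*PAO* encodes pheophorbide a oxygenase, the enzyme that opens the chlorophyll ring, and *RCCR1* encodes red chlorophyll catabolite reductase, which acts on its product. *PAO* was at 78.4, 79.7 and 65.0 CPM in IL22 salt libraries, against 39.8, 29.6 and 40.1 CPM in IL22 control libraries. In OLESA, it was at 71.4, 112 and 137 CPM under salt, against 53.1, 55.1 and 42.8 CPM in control libraries. No salt library of *PAO* overlapped a control library of either genotype. The log2 FCs were close in the 2 genotypes, 1.03 in IL22 (SE 0.22, adjusted p = 0.0192) and 1.09 in OLESA (SE 0.22, adjusted p = 0.00639), and the value in IL22 was 1.09 without IL22 control replicate 1 (adjusted p = 0.0147). The call in IL22 was lost without IL22 control replicate 2 (log2 FC 0.90, adjusted p = 0.0933), IL22 salt replicate 1 (0.98, adjusted p = 0.0894) or IL22 salt replicate 2 (0.96, adjusted p = 0.0884).

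*RCCR1* was measured at 7.13, 9.61 and 8.61 CPM in IL22 salt libraries, against 3.51, 3.77 and 3.32 CPM in IL22 control libraries. In OLESA, it was at 12.4, 15.3 and 24.7 CPM under salt, against 5.93, 5.21 and 5.52 CPM in control libraries. It was the only one of the 6 genes with no overlap between any of the 4 groups, in the order OLESA salt, IL22 salt, OLESA control and IL22 control. Salt raised it by a log2 FC of 1.25 in IL22 (SE 0.26, adjusted p = 0.0154; 1.25 with an adjusted p of 0.0176 without IL22 control replicate 1) and of 1.66 in OLESA (SE 0.25, adjusted p = 0.0016). The IL22 call did not survive dropping IL22 control replicate 2 (adjusted p = 0.0521), IL22 control replicate 3 (0.0585) or IL22 salt replicate 2 (0.0776).

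**Figure D2:**
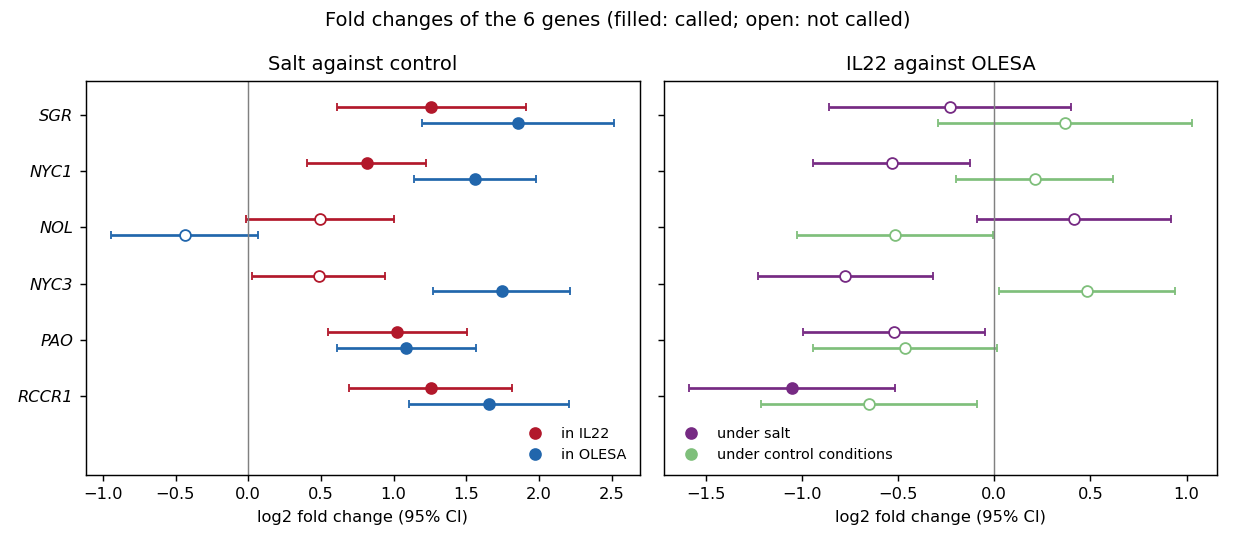
Log2 FCs of the 6 genes with 95% confidence intervals from edgeR, for salt against control in IL22 and in OLESA (left) and for IL22 against OLESA under salt and under control conditions (right), with filled points for genes that passed the thresholds. Salt raised 4 genes in IL22 and 5 in OLESA, and only *RCCR1* under salt passed between the genotypes.

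Leaving out 1 of the 12 libraries at a time, the number of up-regulated genes in OLESA was 5 in each of the 12 fits, in which between 9.05% and 27.5% of all features were called in either direction (21.6% with all libraries). In IL22, where 5.17% of features were called in either direction with all libraries, 1 gene was up-regulated when control replicate 2 (1.9% of features), control replicate 3 (2.64%) or salt replicate 1 (1.64%) of this line was dropped. None of the 6 was up-regulated when its salt replicate 2 was dropped (1.98% of features) and 3 were when its salt replicate 3 was (2.83%). Calls among the 6 genes and over all features thus fell in the same fits. Dropping IL22 control replicate 1 gave 4 genes, with 14.7% of all features called in either direction in that fit (6.39% up-regulated). The sign of the log2 FC stayed positive for each of the 6 genes in IL22 in all 12 fits. Fits that drop an OLESA library hardly move these values, so only the fits that drop an IL22 library bear on the sign.

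The next question was whether the genotypes differed in the expression of these genes. Under salt, 5 of the 6 genes had lower estimates in IL22 than in OLESA, but only *RCCR1* passed the test, at 8.45 ± 1.25 CPM in IL22 and 17.5 ± 6.45 CPM in OLESA (SD, n = 3 each), a log2 FC of -1.05 (SE 0.25, adjusted p = 0.0413). Of all tested features, 1.65% were lower in IL22 by the same criteria. The median log2 FC was -0.53 for the 6 genes and -0.002 over all features, of which 49.85% had a positive estimate. *NYC1*, *NYC3* and *RCCR1* had all IL22 salt libraries below all OLESA salt libraries, as had 16.3% of features. The log2 FC was -0.77 for *NYC3* (SE 0.21, adjusted p = 0.0703), -0.53 for *NYC1* (SE 0.19, adjusted p = 0.142) and -0.52 for *PAO* (SE 0.22, adjusted p = 0.202). By unadjusted p and the same FC, *NYC1*, *NYC3*, *PAO* and *RCCR1* passed, against 9.77% of features. *SGR* had a log2 FC of -0.23 (95% confidence interval -0.86 to 0.40) and *NOL* one of 0.42 (-0.09 to 0.92).

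The call for *RCCR1* rested on a narrow margin. With upper-quartile factors its log2 FC was -0.98 (adjusted p = 0.0546), and fitted on just the 6 salt libraries it was -1.04 (adjusted p = 0.0562). Without OLESA salt replicate 3, the highest library for this gene, the log2 FC was -0.71 (adjusted p = 0.0957). The call was also lost without OLESA control replicate 1, 2 or 3 (adjusted p = 0.0538, 0.0669 and 0.0506), IL22 control replicate 2 (0.0545), OLESA salt replicate 2 (0.0747) or IL22 salt replicate 1, 2 or 3 (0.197, 0.0922 and 0.141). In the fits without 1 library that lost it, 0.896% to 2.72% of features were called in either direction, against 2.85% with all libraries. It was kept without OLESA salt replicate 1, where 1.96% of features were called. *NYC3* was called under salt by DESeq2 (adjusted p = 0.0194), in the fit on just the 6 salt libraries (0.0316) and without OLESA control replicate 3 (0.048). In these fits, 7.59%, 7.51% and 2.72% of features were called in either direction. Without IL22 control replicate 1, a library that is not in this contrast but adds to the common estimate of the spread, *NYC1* (adjusted p = 0.035), *NYC3* (0.0303) and *RCCR1* (0.0223) were lower in IL22, and 5.56% of features were.

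Under control conditions, none of the 6 genes was called between IL22 and OLESA by edgeR or by DESeq2, where 1.38% of features were called in either direction by edgeR. By unadjusted p and the same FC, 2 genes passed, *NOL* and *RCCR1*, against 15.6% of features. Values of *NOL*, *PAO* and *RCCR1* were lower in each IL22 control library than in each OLESA control library, and 15.9% of features had non-overlapping values in one direction or the other. *RCCR1* was at 3.54 ± 0.225 CPM in IL22 and 5.55 ± 0.361 CPM in OLESA (SD, n = 3 each), a log2 FC of -0.65 (95% confidence interval -1.21 to -0.09, adjusted p = 0.211). *PAO* was at 36.5 ± 5.97 CPM in IL22 and 50.4 ± 6.63 CPM in OLESA, a log2 FC of -0.46 (-0.94 to 0.02, adjusted p = 0.283). The estimates ran the other way for *NYC3*, with a log2 FC of 0.48 (0.03 to 0.94, adjusted p = 0.245), for *SGR* with 0.37 (-0.29 to 1.03) and for *NYC1* with 0.21 (-0.20 to 0.62). Without IL22 control replicate 1, still none of the 6 was called, although 18.9% of features were. The log2 FC in that fit was 0.61 for *NYC3* (adjusted p = 0.0658), 0.40 for *NYC1* (0.0847), 0.27 for *SGR* (0.625), -0.50 for *NOL* (0.207), -0.53 for *PAO* (0.151) and -0.65 for *RCCR1* (0.147). *NYC3* and *RCCR1* then passed by unadjusted p (29.7% of features). *NYC1* and *NYC3* were higher, and *NOL*, *PAO* and *RCCR1* lower, in both remaining IL22 control libraries than in each OLESA control library, and 49.5% of features had non-overlapping values.

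Whether IL22 and OLESA responded differently was tested as an interaction, the log2 FC in IL22 minus that in OLESA. It passed for *NYC3* alone, with a value of -1.26 (SE 0.30, 95% confidence interval -1.90 to -0.61, adjusted p = 0.0386). The estimated salt response was 1.40-fold in IL22 and 3.34-fold in OLESA. Of all features, 4.99% passed in either direction. The values were -0.74 for *NYC1* (SE 0.27, adjusted p = 0.112) and 0.93 for *NOL* (SE 0.33, adjusted p = 0.11). Together with *NYC3*, both passed at an unadjusted p, as did 24.3% of features. For *PAO* the value was -0.06 (95% confidence interval -0.73 to 0.61, adjusted p = 0.929), for *RCCR1* -0.40 (-1.18 to 0.37, adjusted p = 0.515) and for *SGR* -0.60 (-1.51 to 0.32, adjusted p = 0.4). The intervals are wide, and the genes that did not pass are not shown to respond alike in the 2 genotypes.

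The call for *NYC3* depended on which libraries were used, although its direction did not. With DESeq2 the adjusted p was 0.00412, and 12.1% of features were called. The fit without IL22 control replicate 1 gave a value of -1.38 (adjusted p = 0.00553). In that fit *NYC1* passed as well, with -0.93 (adjusted p = 0.00732), and 23.3% of features did. The others were at 0.92 for *NOL* (adjusted p = 0.0782), -0.50 for *SGR* (0.459), -0.40 for *RCCR1* (0.488) and 0.0094 for *PAO* (0.991). The call for *NYC3* was lost without OLESA control replicate 2 (adjusted p = 0.0992) or 3 (0.0771), IL22 control replicate 2 (0.107) or 3 (0.0909), OLESA salt replicate 1 (0.0692) or 2 (0.0832), and IL22 salt replicate 1 (0.0955), 2 (0.0771) or 3 (0.102). Calls over all features fell in these same fits, to between 0.0891% and 0.267% of features, against 4.99% with all libraries. Over all 12 such fits the value lay between -1.43 and -1.06.

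**Figure D3:**
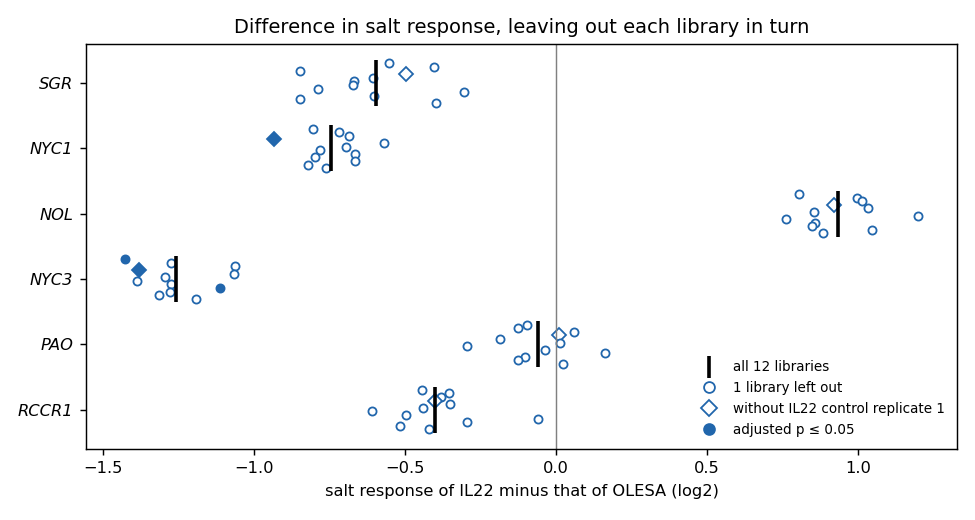
Difference in salt response between IL22 and OLESA (log2 FC in IL22 minus that in OLESA) for each of the 6 genes, with a black bar for all 12 libraries, a point for each fit that leaves out 1 library and a diamond for the fit without IL22 control replicate 1. *NYC3* lies between -1.43 and -1.06 and *NOL* between 0.76 and 1.20, whereas *PAO* lies on both sides of 0.

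Ratios of counts within a library do not depend on the scaling of library sizes. Transcript lengths were not used, so only changes in a ratio can be read. For the 2 components of chlorophyll b reductase, *NYC1* had 29.3, 49.0 and 35.4 counts per *NOL* count in IL22 salt libraries, against 21.4, 31.8 and 35.3 in IL22 control libraries, and these ranges overlapped. In OLESA, the ratio was 50.8, 106 and 73.1 under salt, against 16.5, 18.9 and 18.4 in control libraries. The OLESA salt libraries held the 3 highest ratios of the 12 and the OLESA control libraries the 3 lowest, with IL22 libraries of both conditions between them. The mean log2 ratio was 2.03 higher under salt in OLESA (two-sided exact permutation test, p = 0.1, adjusted p = 0.16 over 8 comparisons) and 0.36 higher in IL22 (exact p = 0.4; 0.14 with an exact p of 0.8 when IL22 control replicate 1 was dropped). Under salt, the ratio itself, not its log2, was 37.9 ± 10.1 in IL22 and 76.8 ± 28.0 in OLESA (SD, n = 3 each), a difference of -0.99 in the mean log2 ratio (exact p = 0.1). With 3 libraries against 3, this test cannot give a p below 0.1. The *PAO* to *RCCR1* ratio, for the enzymes that open the ring and reduce the product, was 11.0, 8.30 and 7.55 in IL22 salt libraries, against 11.3, 7.85 and 12.1 in IL22 control libraries. In OLESA, it was 5.75, 7.34 and 5.55 under salt, against 8.97, 10.6 and 7.75 in control libraries, a difference of -0.55 in the mean log2 ratio (exact p = 0.1, adjusted p = 0.16). The difference in IL22 was -0.21 (exact p = 0.4), and -0.14 (exact p = 0.6) without IL22 control replicate 1. The ranges overlapped in IL22 and not in OLESA. Between genotypes (IL22 minus OLESA), the difference was 0.52 under salt (exact p = 0.1), where the ranges did not overlap. Under control conditions it was 0.18 (exact p = 0.5), and 0.11 (exact p = 0.7) without IL22 control replicate 1. With so few libraries, no difference in either ratio could have passed the test at 0.05.

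**Figure D4:**
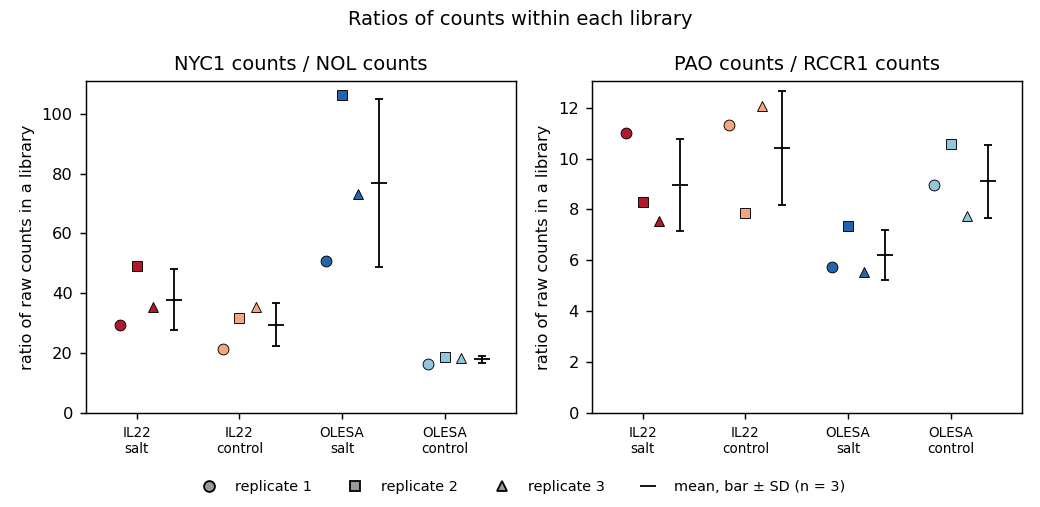
Ratio of raw counts of *NYC1* to *NOL* (left) and of *PAO* to *RCCR1* (right) in each library, with symbols for replicates and bars for the mean ± SD of 3 replicates. The *NYC1* to *NOL* ratio is 50.8 to 106 in OLESA salt libraries and 16.5 to 18.9 in OLESA control libraries, with all IL22 libraries between.

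The genes also differed in how alike their profiles were over the 12 libraries. The closest pairs were *PAO* and *RCCR1* (Pearson's r of log2 CPM = 0.94, Spearman's rho = 0.92) and *NYC1* and *NYC3* (r = 0.93, rho = 0.95), given as a description, since all libraries of a treatment share that treatment. Among the 20759 other features, *RCCR1* was 25th in likeness to *PAO*, and *NYC3* was 68th in likeness to *NYC1*. *SGR* correlated at r = 0.76 to 0.83 with *NYC1*, *NYC3*, *PAO* and *RCCR1*, and *NOL* at r = -0.31 to -0.12 with the other 5 genes. After the mean of each group was subtracted, so that treatment and genotype no longer contribute, r was 0.58 for *PAO* and *RCCR1* and 0.53 for *NYC1* and *NYC3*. It was nearly as high for *NYC3* and *RCCR1* (0.52) and for *SGR* and *RCCR1* (0.51), and it was -0.63 for *NOL* and *PAO*. The pair of *NYC1* and *NYC3* thus did not stand apart within groups. Over the 11 libraries without IL22 control replicate 1, r was 0.93 for *PAO* and *RCCR1* (0.59 within groups), 0.94 for *NYC1* and *NYC3* (0.35 within groups), and -0.41 to -0.20 for *NOL* with the other 5 genes. Within groups, r was then higher than for *NYC1* and *NYC3* for *NYC3* with *RCCR1* (0.57), *NYC3* with *PAO* (0.55) and *SGR* with *RCCR1* (0.52).

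The locus IDs place *SGR* on Chromosome 9, *NYC1* on Chromosome 1, *NOL* and *PAO* on Chromosome 3, *NYC3* on Chromosome 6 and *RCCR1* on Chromosome 10. The large *indica* introgressions of IL22 lie on Chromosomes 1 and 3, and whether *NYC1*, *NOL* or *PAO* falls inside one was not settled from the counts. Calls among neighbouring features cannot settle it either, since an introgressed gene need not differ in expression between the lines. Fragments of *indica* alleles would be counted on *japonica* gene models, which can lower their number. Of the 50 tested features nearest in ID order to *NYC1*, and likewise to *NOL*, none was called between IL22 and OLESA in either condition. Around *PAO*, 1 of 50 was called under control conditions and none under salt. Around *NYC3* and around *RCCR1*, 2 of 50 were called under salt and none under control conditions, and around *SGR* none was called. Over all features, 1.38% were called under control conditions and 2.85% under salt. Without IL22 control replicate 1, 6 of 50 around *PAO* to 14 of 50 around *NYC3* were called under control conditions (18.9% of all features), and 2 of 50 around *NYC1* and *PAO* to 7 of 50 around *NYC3* under salt (8.44%).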

How the data were processed

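The deposited values were whole-number counts of fragments per feature for each replicate, which the authors had not normalized. By the supplementary methods and the submitters' processing notes, libraries from a stranded mRNA kit were demultiplexed with bcl2fastq 2.20, masked with cutadapt 1.11, trimmed with BBDuk, aligned with STAR 2.5.2b to IRGSP-1.0 and counted with featureCounts 1.5.1. The sources used here do not state how fragments matching several genes were treated. Every row had a feature name.

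The analysis ran in edgeR 4.0.16 under R 4.3.3. Features passed filterByExpr at a minimum count of 10 and a minimum total of 15. All 12 libraries entered TMM scaling and a quasi-likelihood fit of 1 mean for each group. Benjamini-Hochberg adjustment covered all tested features. The steps were also run on simulated counts, in which all groups shared a common mean except for features changed on purpose. No simulated library deviated from its group, as IL22 control replicate 1 did, so that run does not show how the calls behave here. Standard errors were derived from the F statistic. Each replicate was its own set of plants, so the spread behind the tests is that between pools of plants. The alternatives tried were DESeq2 1.42.0, RLE or upper-quartile factors, no filter, a minimum count of 50, fits of the compared groups alone, the replicate number as a block, and leaving out each library.

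The members and lists were chosen with earlier results of these data known, and each member was named in every contrast by rule. Gene names came with the member list. The reference table (assembly ASM3414082v1) matched 1 feature ID, and 4 of the 6 symbols occur in it on the chromosome of the ID. Planned lists of other breakdown genes, senescence regulators and leaf and root markers were not used, because no table names their IDs, so the tissue label was not checked against markers. No sequences or coordinates are given for the same reason.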

Additional observations from a re-analysis of the deposited data

Results flagged for a closer look

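The salt response of *NYC3* differed between the genotypes by the interaction test, with a log2 value of -1.26 (IL22 minus OLESA, edgeR's quasi-likelihood test, adjusted p = 0.0386). The call was lost in 9 of 12 fits that left out 1 library (adjusted p up to 0.107). In those 9 fits, 0.0891% to 0.267% of all features were called, against 4.99% with all libraries. The estimated salt response was positive in both genotypes, 0.48 in IL22 and 1.74 in OLESA. *NOL* had estimates of opposite sign in IL22 (0.49) and OLESA (-0.44), but its interaction did not pass (adjusted p = 0.11).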

How the results depend on the processing

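Shares in brackets are of all features called in either direction. The number of the 6 genes called in all fits was 5 for salt in OLESA (9.05% to 27.5%). It was 0 for IL22 against OLESA under control conditions (0.741% to 18.9%). For salt in IL22 it was 4 (5.17%), and 3 in the fit of the compared groups (4.67%). It was 3 with the replicate block (3.27%) and 0 to 4 when 1 library was left out (1.64% to 14.7%). For IL22 against OLESA under salt it was 1 (2.85%), and 0 with upper-quartile factors (2.72%). There it was 2 with DESeq2 (7.59%), 0 with the replicate block (1.63%) and 0 to 3 when 1 library was left out (0.896% to 8.44%). For the interaction it was 1 (4.99%), and 0 with the replicate block (0.111%) and 0 to 2 when 1 library was left out (0.0891% to 23.3%). Same-numbered libraries did not deviate together (r of deviations from -0.326 to 0.2), so the numbers were not taken as pairs. The block left uncalled the *SGR* response in IL22 (adjusted p = 0.0598), *RCCR1* between genotypes under salt (log2 FC -1.03, adjusted p = 0.0773) and the *NYC3* interaction (-1.26, adjusted p = 0.0779). In all, 2 estimates changed sign, both uncalled: the interaction of *PAO* (0.026 with upper-quartile factors, -0.29 to 0.16 leaving out 1 library) and *SGR* between genotypes under salt (-0.48 to 0.066 leaving out 1 library, the higher end without OLESA salt replicate 3). Counts over all features moved more. When 1 library was left out they ran from 348 to 3125 for salt in IL22 (1074 with all), 1936 to 5841 for salt in OLESA (4487), 158 to 4000 between genotypes under control conditions (286), 190 to 1790 under salt (592) and 19 to 4949 for the interaction (1036). DESeq2 called 2020 for salt in IL22, 1137 between genotypes under control conditions, 1575 under salt and 2507 for the interaction. The block called 678 for salt in IL22, 338 between genotypes under salt and 23 for the interaction. No filter gave 525 under control conditions, and fits of the compared groups alone gave 156 under control conditions and 1507 under salt. The cause was not tested. *RCCR1*, *SGR* and *NOL* had no more than 574 counts in any library, and the part of counting error in their spread was not tested.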
